A study of Homo sapiens with 9 samples.

Results

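The 10 non-coding host genes of small nucleolar RNAs (snoRNAs) ZFAS1, GAS5, SNHG1, SNHG3, SNHG5, SNHG6, SNHG7, SNHG8, SNHG12 and SNHG16 carried 129 of the 96852 SF3B1 binding sites mapped in K562 cells, 0.133% (95% exact binomial interval 0.111% to 0.158%). A site was counted when its centre lay inside the RefSeq span of the gene (GRCh38) and on the strand of the gene. The spans cover 47.349 kb and enclose 38 snoRNA genes. The rule that names the genes sets no threshold on their sites, but they were chosen with earlier results of these data known, so their counts beside those of other genes are a description.

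The sites come from individual-nucleotide crosslinking and immunoprecipitation (iCLIP), in which ultraviolet light fixes a protein to the RNA it touches and sequencing marks the contact. K562 is an established leukaemia cell line with erythroid features; the labels describe its source as lymphoid. Of 9 libraries, 3 were made with a monoclonal SF3B1 antibody from unmutated cells (SF3B1 wt/wt, supplied by Horizon Discovery), 2 with the same antibody from SF3B1 K700E/wt cells, which carry the mutation on 1 allele (same supplier), and 4 with a U2AF2 antibody from SF3B1 wt/wt cells of another supplier (ATCC). Every culture was exposed to ultraviolet light. Only the merged list attached to the 3 unmutated SF3B1 libraries was analysed here, and whether a line is 1 clone is not given in the sources used here. The list holds no value per library, so no spread between cultures and no test can be given. Its header speaks of sites found in all replicates of either condition, so a single site cannot be assigned to a genotype. The intervals given here cover counting error only, and read depth is unknown. Of 8 genes listed as typical of erythroid cells, 5 had a known strand and 4 of these had sites: TFRC 121, TAL1 17, ALAS2 16 and GATA1 6, with 0 in KLF1. Of 5 lymphoid genes listed, only CD79A had a known strand, and it had 0 sites.

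SF3B1 is the largest protein of the SF3b complex in the U2 small nuclear ribonucleoprotein, which binds the branch point upstream of a 3′ splice site. Most human snoRNAs are not transcribed from promoters of their own. They lie in introns of a host gene and are trimmed out of the intron after splicing, so that splicing of the host and release of the snoRNA are linked. Box C/D snoRNAs (symbols SNORD) guide ribose methylation of ribosomal RNA and box H/ACA snoRNAs (SNORA) guide the conversion of uridine to pseudouridine. In non-coding hosts the spliced exons carry no conserved protein. Many such host RNAs, though not all, are known to begin with a terminal oligopyrimidine tract, as the messenger RNAs of ribosomal proteins do.

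At the annotated start of 4 host genes a site lay on a run of pyrimidines. RefSeq start sequences were held for 9 of the 10 genes, and those of the 5 genes with a site at or next to the start are given here because the sites fall on nearly the same letters in different genes. Each line gives 10 bases before the annotated start and the first 50 bases of the gene, 5′ to 3′, from RefSeq (GRCh38.p14). Capitals mark the 5 bases of each SF3B1 site. The starts used for ZFAS1 and SNHG12 lie inside their gene spans, which begin at other annotated starts farther upstream.
ZFAS1 (chr20:49278632-49278691, plus strand): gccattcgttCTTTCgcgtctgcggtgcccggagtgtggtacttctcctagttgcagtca
SNHG5 (chr6:85678684-85678743, minus strand): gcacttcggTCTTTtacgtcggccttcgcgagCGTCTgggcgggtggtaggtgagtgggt
SNHG8 (chr4:118278752-118278811, plus strand): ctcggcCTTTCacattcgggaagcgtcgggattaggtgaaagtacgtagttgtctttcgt
SNHG12 (chr1:28581824-28581883, minus strand): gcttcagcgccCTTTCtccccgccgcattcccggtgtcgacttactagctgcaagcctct
SNHG16 (chr17:76557754-76557813, plus strand): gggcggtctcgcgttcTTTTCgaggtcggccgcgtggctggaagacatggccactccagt

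The centre of the site was base 2 of SNHG5, base 3 of ZFAS1, base 4 of SNHG12 and base 9 of SNHG16. Bases were counted from 1 at the annotated start. In ZFAS1, SNHG12 and SNHG16 all 5 bases of the site were C or T. SNHG5 had a second site, centred on base 25, and 9 of the 10 bases of its 2 sites were C or T. The site of SNHG8 was centred 2 nt before the annotated start, so it lies outside the gene span and is not among the 129. Its 5 bases, CTTTC, are also those of the sites in ZFAS1 and SNHG12.

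A site within the first 10 nt of a gene was rare in the list as a whole. It was found in 4 of the 9 host genes with a start sequence (44.4%). Among all lncRNA (long non-coding RNA) genes with a site anywhere, 6 of 304 had one there (1.97%), and the 4 hosts are among those 6. Among protein-coding genes with a site, the share was 41 of 6386 (0.642%). This window was chosen after the sites had been seen, and the difference was not tested.

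Features of the start sequences themselves were also counted. A run of at least 5 C or T within the first 15 bases was present in 6 of the 9 hosts (66.7%), against 28.0% of the lncRNA genes and 28.3% of the protein-coding genes with a site. The first base was C in 6 of the 9 hosts, against 18.8% and 12.2%. The letters CTTTC, by contrast, were taken from the host sites. In the 25 bases from 10 before to 15 after the start they occurred in ZFAS1, SNHG8 and SNHG12, whose sites are CTTTC. These are 3 of the 9 hosts, against 3.52% of 27305 lncRNA and protein-coding starts (sense strand only). Because of how the letters were chosen, this contrast is only a description. GAS5, whose annotated start is an A, and SNHG1, whose first 15 bases hold a run of 7 C or T, had no site in their first 50 nt. Nor did SNHG3 and SNHG7.

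**Figure D1:**
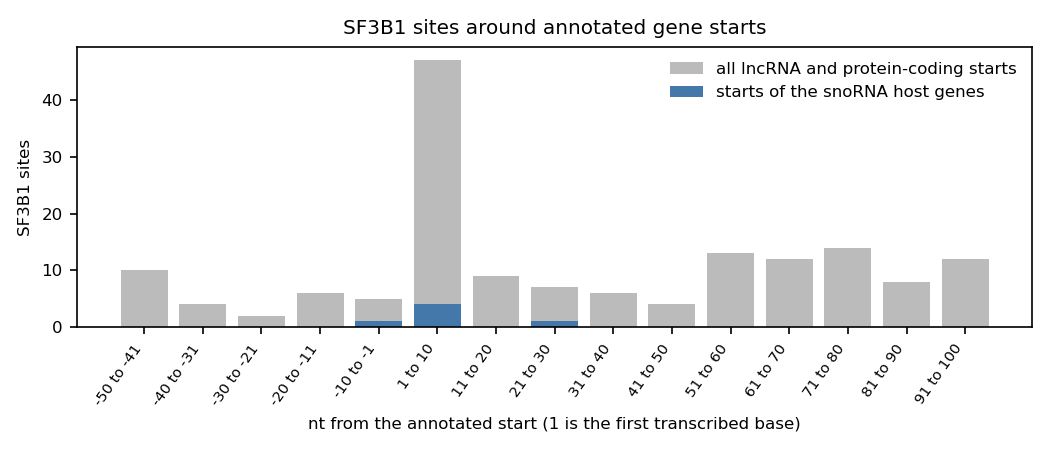
SF3B1 sites in 10-nt steps from 50 nt before to 100 nt past annotated gene starts, for all lncRNA and protein-coding genes with a start sequence (grey) and for the snoRNA host genes (blue, drawn in front). The first 10 nt held 47 sites over all genes, 4 of them in host genes, and the next 10 nt held 9.

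All 10 host genes had sites, from 4 in SNHG3 to 28 in ZFAS1, with a median of 10. Only 2.66% of 11463 lncRNA genes with a known strand had a site on that strand, as did 40.3% of 15843 protein-coding genes. Among lncRNA genes with a site the median was 2 sites, and among protein-coding genes it was 7. By number of sites, 3 of the 10 and 6 of the 30 highest lncRNA genes were hosts studied here. No measure of RNA abundance was used, so the part of host expression in these numbers was not tested.

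ZFAS1 had 28 sites, SNHG1 had 22, GAS5 had 21 and SNHG12 had 14. SNHG6 and SNHG16 had 10 each, SNHG5 had 8, SNHG7 had 7, SNHG8 had 5 and SNHG3 had 4. Every site in these spans lay on the strand of the host, with 0 on the other strand in each gene. For SNHG6 the strand was itself taken from its sites, so this says nothing about that gene. Its 10 sites also lie in the span of the protein-coding gene MCMDC2, for which no strand was held.

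Relative to length, SNHG1 was the densest with 5.63 sites per kb of gene span, followed by SNHG8 with 4.71, SNHG5 with 4.63 and GAS5 with 4.08. SNHG12 had 3.15, SNHG6 2.6, ZFAS1 2.53, SNHG7 1.95, SNHG16 1.32 and SNHG3 0.808 sites per kb. Each value exceeded the median of lncRNA genes with a site (0.147 per kb, quartiles 0.0399 and 0.471) and of protein-coding genes with a site (0.200 per kb, quartiles 0.0705 and 0.511). The host spans are short, from 1062 nt in SNHG8 to 11083 nt in ZFAS1. In most of them a single site would already exceed these medians. The other genes were not matched for length, so this comparison says little beyond span length. By density, the hosts ranked from 4 (SNHG1) to 48 (SNHG3) among lncRNA genes. The span of ZFAS1 includes a stretch of 7502 nt without a site, so its density depends on the outer limits of the annotation.

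**Figure D2:**
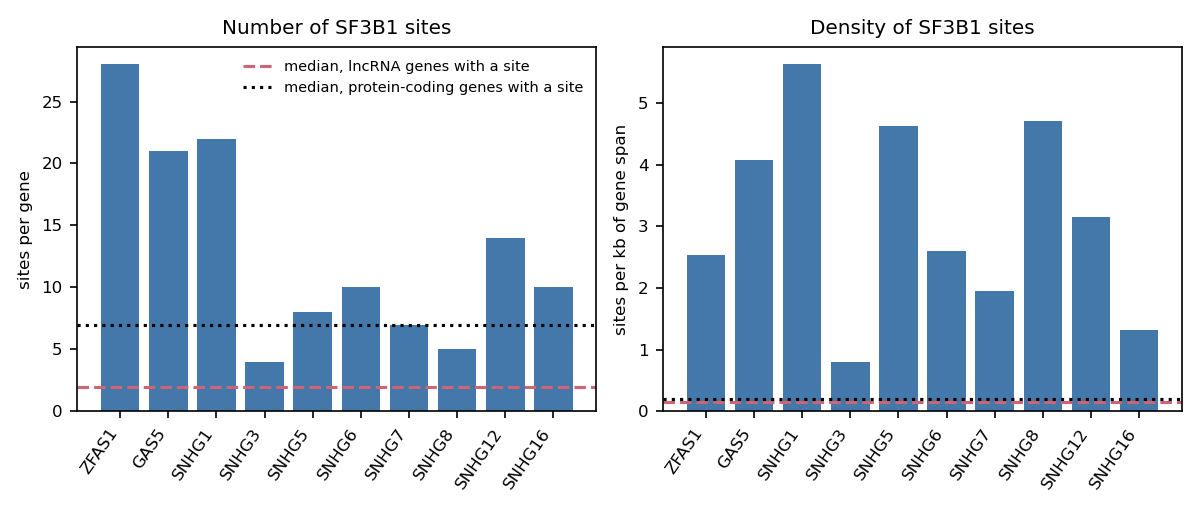
Number of SF3B1 sites (left) and sites per kb of gene span (right) in each host gene, as bars. The dashed and dotted lines give the medians of lncRNA and protein-coding genes with at least 1 site, not matched for length. Every host lies above both in density, which depends on its short span. SNHG3 and SNHG8 lie below the protein-coding median of 7 in number.

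The sites were interleaved with the snoRNA genes. Of the 129 sites, 14 lay inside a snoRNA gene (10.9%, 95% exact interval 6.06% to 17.5%). Outside snoRNA genes, 34 lay within 100 nt past the 3′ end of a snoRNA gene (26.4%, 19.0% to 34.8%) and 17 within 100 nt before a 5′ end (13.2%, 7.87% to 20.3%), directions being those of transcription and 1 site belonging to both windows. The other 65 sites (50.4%) lay farther away. Neighbouring snoRNA genes of a host enclose 28 stretches, and 22 of them held a site. These stretches had 63 sites in 12561 nt, or 5.02 per kb, against 1.52 per kb before the first snoRNA gene of a host and 1.76 per kb after the last. Of the 18726 nt after the last, 8488 nt belong to ZFAS1 and include its 7502 nt without a site. The outer values therefore depend on the limits of the annotation. A 100 nt window on either side of a snoRNA often reaches into the window of the next, because the stretches between snoRNA genes are as short as 10 nt in GAS5.

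**Figure D3:**
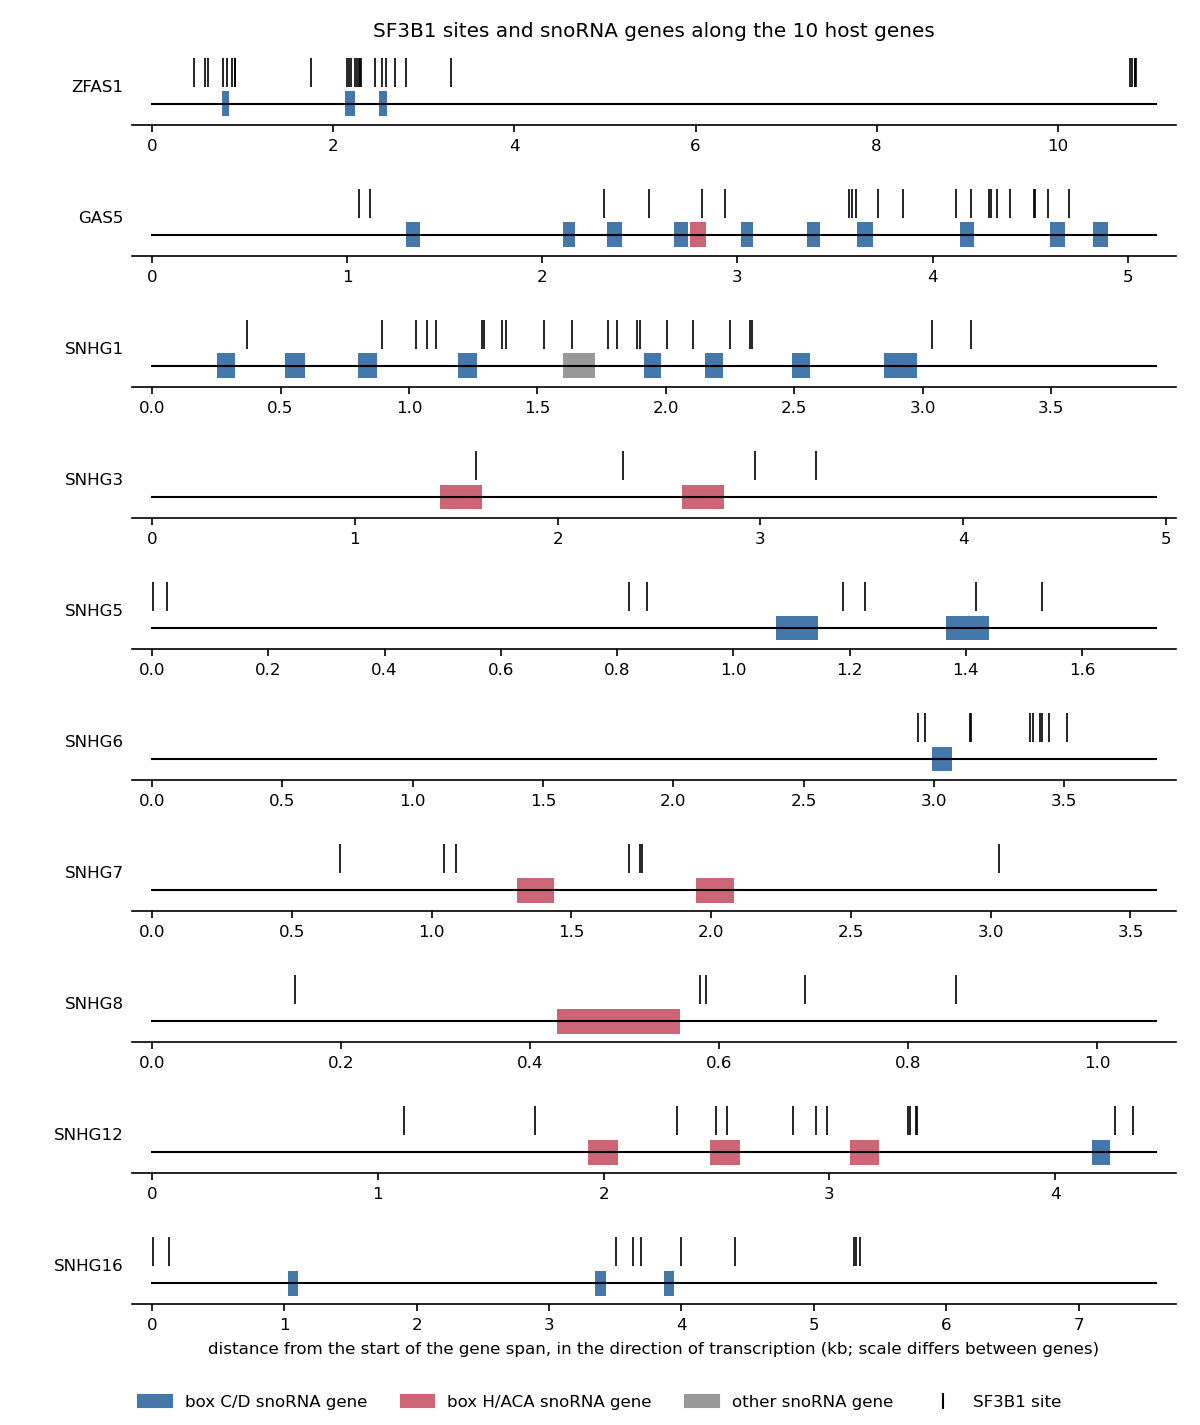
Position of SF3B1 sites (vertical lines) and snoRNA genes (boxes, coloured by class) along each host gene, from the start of the gene span in the direction of transcription, in kb with a separate scale for each gene. In SNHG1 and GAS5 most sites lie between snoRNA genes, though several stretches between neighbouring snoRNA genes hold none and others hold several. In ZFAS1 sites also fall inside all 3 snoRNA genes and 5 sites lie near the end of the span.

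Counted over snoRNA genes, 22 of 38 (57.9%, 40.8% to 73.7%) had a site in the 100 nt past their 3′ end, 11 (28.9%, 15.4% to 45.9%) in the 100 nt before their 5′ end and 9 (23.7%, 11.4% to 40.2%) inside. The same counts were made for the 202 SNORD and SNORA genes inside protein-coding genes with a site. Genes with other symbols were left out there, while the 38 include LOC124900306, which had a site in each of the 3 zones. There, 28.2% had a site past the 3′ end, 13.9% before the 5′ end and 12.4% inside. With the classes pooled, the order of the 3 zones was the same in both sets, and the shares in the non-coding hosts were higher in each zone. Neither held for box H/ACA genes alone. Their shares inside, past and before were 33.3%, 22.2% and 0% in the non-coding hosts, against 12.1%, 22.0% and 9.89%. The sets also differ in class, with 28 of 38 genes box C/D against 111 of 202. The difference between the sets was not tested, nor was the part of class or host abundance in it. GAS5 supplied 5 of the 11 snoRNA genes with a site before the 5′ end, and without it the count was 6, while 17 of the remaining snoRNA genes had a site past the 3′ end. Farther out the difference between the sides did not keep its direction. In 25-nt steps, the first 100 nt past a 3′ end of the 38 snoRNA genes held 8, 10, 9 and 8 sites, against 5, 6, 2 and 4 before a 5′ end. From 201 to 300 nt, the steps before a 5′ end held 9, 8, 7 and 6 sites and those past a 3′ end 4, 2, 6 and 4, where a site can count for several snoRNA genes.

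Box C/D genes accounted for most of the sites past a 3′ end. Of the 28 box C/D genes, 19 (67.9%, 47.6% to 84.1%) had a site there, 10 (35.7%) had one before the 5′ end and 5 (17.9%) had one inside. Past the 3′ end the density was 10.7 sites per kb, against 5.71 before the 5′ end and 4.19 inside. Over the whole spans of all 10 hosts it was 2.72, and in the stretches between neighbouring snoRNA genes of any class it was 5.02. In protein-coding hosts, 37 of 111 box C/D genes (33.3%, 24.7% to 42.9%) had a site past the 3′ end, with 5.32 sites per kb. For the 19 genes, the nearest site past the 3′ end lay 7 to 91 nt away, with a median of 44 nt, and in 8 of them it lay 20 to 31 nt away. That narrower range was picked after the distances had been seen, and in protein-coding hosts it held 10 of 37.

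The 9 box H/ACA genes give less precise shares. A site past the 3′ end was found for 2 of them (22.2%, 2.81% to 60.0%), and 3 (33.3%, 7.49% to 70.1%) had a site inside. None of the 9 had a site in the 100 nt before the 5′ end, and a count of 0 of 9 allows a share of up to 33.3% if 3 counts are taken as the limit, or 33.6% by the exact interval. In protein-coding hosts, 20 of 91 box H/ACA genes (22.0%, 14.0% to 31.9%) had a site past the 3′ end and 9.89% before the 5′ end. The intervals of the classes in the non-coding hosts overlap, and the difference between classes was not tested.

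**Figure D4:**
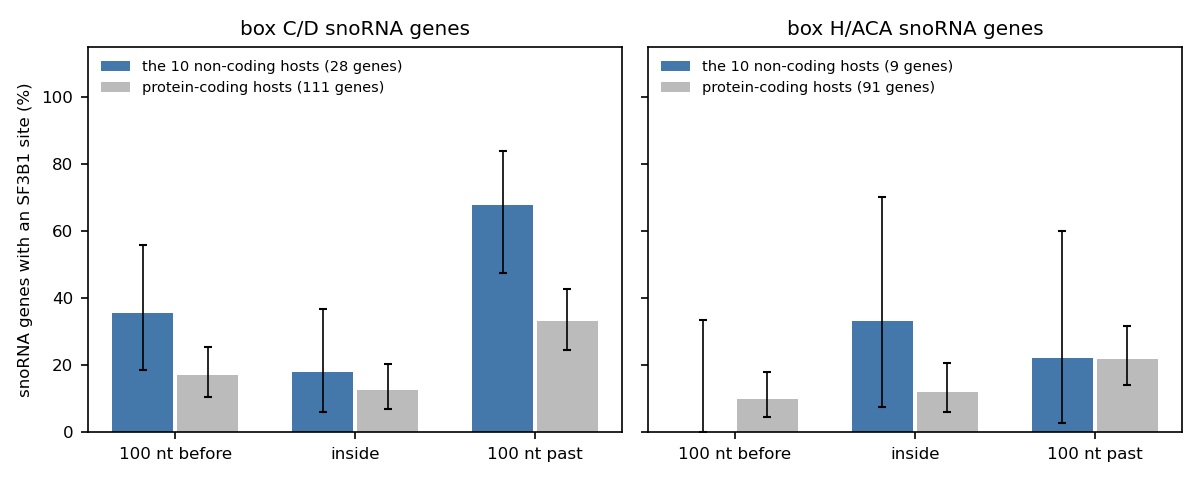
Share of snoRNA genes, in percent, with at least 1 SF3B1 site in the 100 nt before the 5′ end, inside the gene and in the 100 nt past the 3′ end, for box C/D (left) and box H/ACA genes (right) of the 10 non-coding hosts (blue) and of protein-coding hosts with a site (grey). Error bars are 95% exact binomial intervals; the highest bar is the 67.9% of box C/D genes with a site past the 3′ end.

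**Figure D5:**
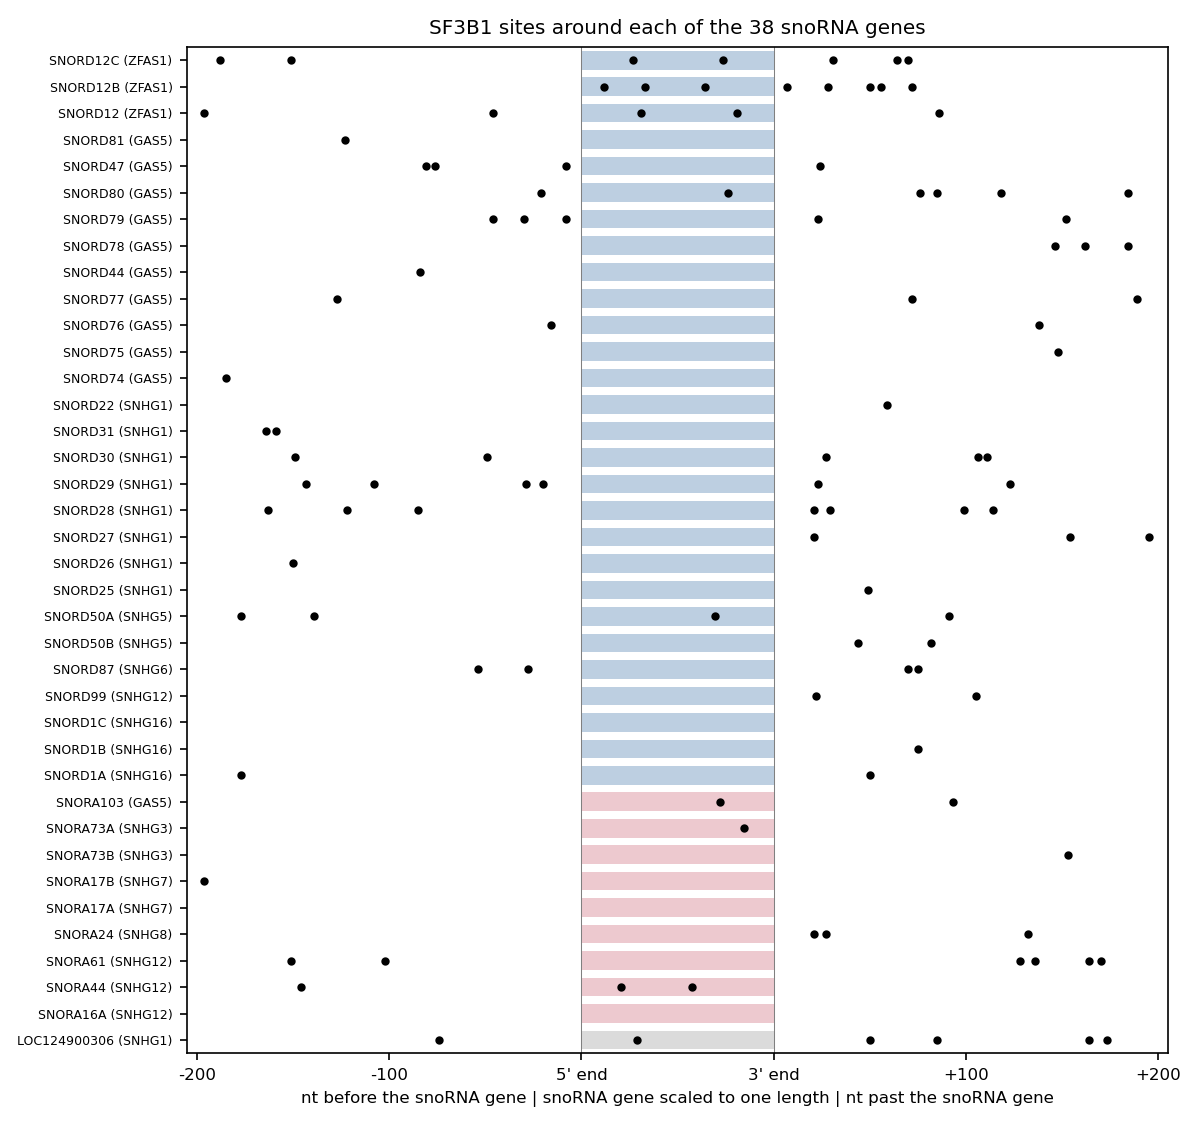
Each of the 38 snoRNA genes (shaded, scaled to a common length; blue box C/D, red box H/ACA, grey other) with the SF3B1 sites of its host from 200 nt before to 200 nt past it, as points. The horizontal axis is in nt outside the snoRNA genes; 7 of the 14 sites inside a snoRNA gene belong to the 3 snoRNA genes of ZFAS1.

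ZFAS1, a host on chromosome 20 (49278178 to 49289260, plus strand) that is transcribed away from the neighbouring gene ZNFX1, encloses SNORD12C, SNORD12B and SNORD12. All 3 had sites inside them, which was the case for no other host. In SNORD12C these were centred on bases 21 and 58 of the snoRNA gene, in SNORD12B on bases 12, 34 and 66, and in SNORD12 on bases 28 and 73. Past the 3′ end of SNORD12B sites followed at 7, 28, 50, 56 and 72 nt, and past that of SNORD12C at 31, 64 and 70 nt. ZFAS1 thus contributed 7 of the 14 sites inside snoRNA genes. The 3 snoRNAs are related copies, and reads that map to more than 1 of them are uncertain.

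GAS5, a host on chromosome 1 (173863901 to 173869045, minus strand) whose RNA accumulates in growth-arrested cells, encloses 11 snoRNA genes, 10 of them box C/D. Its 21 sites lay from 1060 to 4701 nt past its start but were unevenly spread. The widest gap, 1199 nt, lay between the sites at 1116 and 2315 nt, and the 387 nt between SNORD80 and SNORD47 held 7 sites. The nearest site before a 5′ end lay 8 nt from SNORD47 and likewise 8 nt from SNORD79, 16 nt from SNORD76, 21 nt from SNORD80 and 84 nt from SNORD44. Sites past a 3′ end came at 24 nt for SNORD47, 23 nt for SNORD79, 72 nt for SNORD77 (inside SNORA103), 76 and 85 nt for SNORD80 and 93 nt for SNORA103. The last is also the site 84 nt before SNORD44. SNORD81, SNORD78, SNORD75 and SNORD74 had none inside or within 100 nt. SNORD80 had a site on its base 54 and SNORA103 on its base 62.

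SNHG1, the host on chromosome 11 (62851978 to 62855885, minus strand) long known as the U22 host gene, encloses SNORD22, SNORD25 to SNORD31 and a further snoRNA gene with the symbol LOC124900306. The nearest site past the 3′ end lay at 21 nt for SNORD27 and SNORD28, at 23 nt for SNORD29, at 27 nt for SNORD30, at 49 nt for SNORD25 and at 59 nt for SNORD22. SNORD26 and SNORD31 had no site within 100 nt on either side. None of its 8 box C/D genes had a site inside, and the only site inside a snoRNA gene was on base 36 of LOC124900306. GAS5 and SNHG1 are both rows of box C/D genes, and in both the sites lay mainly between the snoRNA genes. Their sides differed. Outside snoRNA genes, GAS5 had 8 sites only within 100 nt before a 5′ end and 4 only past a 3′ end. Another site of GAS5 lay in both windows. SNHG1 had 5 sites before a 5′ end and 10 past a 3′ end. GAS5 was the only host with more sites before a 5′ end than past a 3′ end.

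The other box C/D hosts, SNHG5, SNHG6 and SNHG16, had 8 to 10 sites each. SNHG5 (chromosome 6, 85677007 to 85678733, minus strand), host of the U50 snoRNAs, had sites 44 and 82 nt past SNORD50B, on base 52 of SNORD50A and 91 nt past it. Its other 4 sites were the 2 at its start and 2 lying 224 and 255 nt before SNORD50B. SNHG6 (chromosome 8, 66921690 to 66925541) had sites 54 and 28 nt before and 70 and 75 nt past SNORD87, its only snoRNA gene, and its other 6 sites lay 301 to 443 nt past it. SNHG16 (chromosome 17, 76557764 to 76565348, plus strand) had a site 75 nt past SNORD1B and 50 nt past SNORD1A. SNORD1C of SNHG16 had none between 902 nt before and 2399 nt past it. In each of these genes the window past a 3′ end held at least as many sites as the window before a 5′ end.

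Of the hosts with box H/ACA genes alone, SNHG3 (chromosome 1, 28505943 to 28510892, plus strand), host of the U17 snoRNAs SNORA73A and SNORA73B, which act in the cleavage of ribosomal RNA precursors, had 1 site on base 175 of the 207 nt of SNORA73A. Its other 3 sites lay 153 nt or more from a snoRNA gene. All 4 also lie in RCC1, which is annotated on the same strand, so they cannot be assigned to either RNA. SNHG7 (chromosome 9, 136724594 to 136728184, minus strand) had none of its 7 sites inside or within 100 nt of SNORA17A or SNORA17B. They also lie in LOC124900276, a protein-coding gene annotated on the same strand.

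SNHG8 (chromosome 4, 118278762 to 118279823, plus strand) had sites 21, 27, 132 and 292 nt past SNORA24 and 1 site 278 nt before it. SNHG12 (chromosome 1, 28578538 to 28582983, minus strand) holds both classes, as GAS5 does, with SNORA16A, SNORA44, SNORA61 and the box C/D gene SNORD99. Its SNORA44 had sites on bases 27 and 76, and SNORD99 had sites 22 and 105 nt past its 3′ end. Past SNORA61 there were 4 sites at 128 to 170 nt, past SNORA44 the nearest was at 237 nt and past SNORA16A at 262 nt. Within SNHG12, the box C/D gene thus had the nearest site past its 3′ end and the 3 box H/ACA genes had theirs beyond 100 nt.

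Neighbouring sites in the hosts were close together. The 119 distances between neighbours had a median of 83 nt (quartiles 28.5 and 208 nt). There were 17 distances of at most 12 nt, 20 of 25 to 45 nt and 6 in the equally wide range of 46 to 66 nt. ZFAS1 supplied 7 of the 20. SNHG6 had the shortest median distance, 27 nt, and SNHG3 the longest, 652 nt. The ranges were not fixed in advance, so these counts are only a description and no preferred distance was tested. Distances were counted in the hosts alone, so whether this spacing is particular to them was not tested.

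Other genes of snoRNA production were examined as lists. Of 17 further non-coding snoRNA hosts, 13 had a known strand and 7 of these had a site, with a median of 1 site against 10 in the hosts described above. SNHG17 had the most, 28, followed by SNHG29 with 11 and SNHG10 with 6. Of 19 genes for snoRNA-binding proteins, their assembly factors and the enzymes that link snoRNAs to splicing, 14 had a known strand and 12 had a site, with a median of 5.5 over the 14. DKC1, the pseudouridine synthase of box H/ACA particles, had 43 sites. AQR, a helicase that binds introns in the spliceosome, had 33, and NOP56, a core protein of box C/D particles, had 18.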

How the data were processed

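The deposited list gives positions, strand, a running number and a score, which was 0 in all 96852 rows; per the file header the sites are merged and 5 nt wide. The submitters' processing notes name STAR 2.7.3a and 2.6.1b, UMI-tools 1.0.0, bedtools 2.27.1, FastQC 0.11.8 and the builds GRCh38.p10 and GRCh38.p12; the site caller is not given in the sources used here. Merging and the demand for reproducibility can remove sites in rare RNA, and reads from similar snoRNA copies may be lost or shifted.

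Site centres were compared with RefSeq gene spans of GRCh38.p14, which list no exons or introns. Strands and starts came from the RefSeq promoter table, matched by gene ID for 9 of the 10 hosts; SNHG6 took the strand of its sites. snoRNA genes were given the strand of their host and a class by symbol. Genes without a strand were left out of backgrounds, and of 347 snoRNA genes in protein-coding hosts, 145 with other symbols were left out. The named genes were all 10 hosts, their snoRNA genes and up to 3 genes with the most sites per list. Members and lists were chosen with earlier results of these data known. Intervals are exact (Clopper-Pearson). Zone assignment was tested on simulated data. Python 3.11.15, NumPy 2.4.6, pandas 2.3.3, SciPy 1.17.1 and matplotlib 3.10.9 were used.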

Additional observations from a re-analysis of the deposited data

How the results depend on the processing

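Of 27 recalculations of 8 results, 20 stayed within 1.5 times for counts or within the 95% interval for shares, and 7 moved. With windows of 50 nt, the share of host sites past a 3′ end was 14.0% and 14 snoRNA genes had such a site; with 150 nt the share was 35.7%. With 150 nt, the share before a 5′ end was 20.9%, for 17 snoRNA genes. Without GAS5 6 snoRNA genes had a site before their 5′ end, and without ZFAS1 7 sites lay inside snoRNA genes. The last 2 and 6 other recalculations were chosen after seeing the data. Over all hosts together, the shares and counts past a 3′ end exceeded those before a 5′ end with windows of 50, 100 and 150 nt. In GAS5 alone this was not so with the 100 nt window. From 201 to 300 nt more sites lay before a 5′ end. The total of 129 sites ranged from 118 (without SNHG3 and SNHG7) to 130 (spans extended by 500 nt). Taking the 5′ end of the site as its position left 3 hosts with a site in the first 10 nt in place of 4. Replicates could not be left out, since the list merges them, and how few reads a site needed is unknown. No paired analysis was possible because only 1 merged set of sites, without replicate columns, was analysed.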

Other observations

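The sites at gene starts were not limited to the non-coding hosts described above. The first 10 nt of 47 genes held a site, 41 protein-coding and 6 lncRNA genes. How many of the 41 enclose snoRNA genes was not counted. By symbol, 30 of the 41 encode ribosomal proteins, and EEF1A1, EIF4A2 and RACK1 were also among them. Of the other 11, RPL17-C18orf32 and RPL36A-HNRNPH2 are readthrough genes that share their site with RPL17 and RPL36A. Of the 65 ribosomal protein genes with a site anywhere, 46.2% had one in the first 10 nt, against 0.174% of 6321 other protein-coding genes, or 11 genes. In the non-coding hosts the share was 44.4%. SNHG19, a further snoRNA host, had its only site there. These genes were grouped after their names had been seen, so the values are a description of this list.

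The first base was C in 40 of the 47 genes, and a run of at least 5 C or T lay within the first 15 bases of 43. All 5 bases were C or T in 42 of the 47 sites in the first 10 nt (89.4%) and in 34 of 106 sites elsewhere in the RefSeq start sequences (32.1%). In full, these sequences run from 250 bases before to 50 bases after the annotated start. The 106 therefore include sites upstream of the start, and 32.1% is not a share for the same RNAs alone. The letters CTTTC made up 7 of the 47 sites and 2 of the 106. They were picked from host sites that are themselves counted here. The depth of reads at these places is unknown, and the part of transcript abundance was not tested.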
